A study of Homo sapiens with 6 samples.

Results

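Thioredoxins, thioredoxin reductases and peroxiredoxins form a redox relay that removes peroxides, and the transcripts of 10 of its genes were followed in K562 cells with and without hyperoside. The genes were taken by name from the deposited count table: TXN and TXN2 (thioredoxins), TXNRD1 and TXNRD2 (thioredoxin reductases), PRDX1, PRDX2, PRDX3, PRDX5 and PRDX6 (peroxiredoxins) and SRXN1 (sulfiredoxin). All 10 were found among the 24960 genes of the table, and all 10 were among the 15095 genes that passed the filter on low counts. K562 is an established chronic myeloid leukemia line that grows in suspension and carries the BCR::ABL fusion. Both groups were K562 cells with no genetic change named in the labels, 3 control libraries with no hyperoside and 3 libraries from cells given hyperoside (2 mM), a plant flavonol glycoside. The time of exposure before RNA extraction and any vehicle in the controls are not given in the sources used here. Nothing in the labels says whether the 3 replicates of a group were separate cultures, so the p-values measure the spread between these libraries, which may be technical.

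The relay runs from NADPH to thioredoxin reductase, from there to thioredoxin, and from thioredoxin to the peroxiredoxins, which reduce hydrogen peroxide and lipid hydroperoxides. Cells hold a cytosolic chain built on TXN and TXNRD1 and a mitochondrial chain built on TXN2 and TXNRD2. PRDX3 belongs to the mitochondrial chain, and PRDX1 and PRDX2 to the cytosolic one. Sulfiredoxin repairs peroxiredoxins whose catalytic cysteine has been over-oxidized. TXN, TXNRD1, PRDX1 and SRXN1 are textbook targets of the transcription factor NRF2. In ferroptosis, the iron-dependent cell death studied in this series, lipid peroxides build up, and the enzymes that remove peroxides are therefore of interest.

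Library totals were close, between 35613283 and 36754725 counts on genes. Counts were divided by TMM-normalized library totals (normalized CPM), and levels of different genes were compared by FPKM, which also divides by gene length. Replicate libraries of a group differed by more than counting error, with a chi-square per degree of freedom of 6.46 to 24.4. Control replicate 1 stood somewhat apart and had the highest control value in 8 of the 10 genes, against 42.1% of all tested genes. The K562 label was checked on 10 erythroid and K562 markers, whose summed level was 5645 to 6741 CPM in control libraries and 4842 to 5864 CPM in hyperoside libraries, with none at 0. Of these markers 3 rose, 4 fell and 3 were not called, GATA1 among the last, where 45.3% of all tested genes were called. The globin genes HBE1 and HBG2 made up most of the sum, and both fell. In the control group they averaged 3033 ± 441 and 1303 ± 205 normalized CPM (SD, n = 3 each). GATA1 averaged 140.8 ± 18.3 normalized CPM without hyperoside and 135.3 ± 7.01 with it (SD, n = 3 each). Of the 6 markers of other cell types, MS4A1 had no count in any control library, and of the 5 tested COL1A1 fell and none rose. EPCAM made up most of their sum, with 78.4 ± 3.31 normalized CPM in the control group (SD, n = 3), and the other 5 markers together held 5.77 to 6.68 CPM in control libraries and 4.10 to 5.31 CPM in hyperoside libraries. Their part in the results was not tested. In bulk RNA, fewer cells of a kind and less RNA per cell cannot be told apart.

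Short coding stretches mark the reductases and the thioredoxins of the relay. The reductases are selenoproteins, in which a TGA codon next to the end of the reading frame is read as selenocysteine and not as a stop. In the GENCODE 29 transcripts used here it was codon 498 of 499 in TXNRD1, at chr12:104348413-104348415 on the plus strand of GRCh38, and codon 523 of 524 in TXNRD2, at chr22:19877111-19877113 on the minus strand, with the stop codon left out of both totals. The last coding bases of both genes are shown with this codon in capitals, because it marks the enzymes that depend on the selenocysteine genes described further on. The coding stretches of the thioredoxins are shown with the active-site codons in capitals.
TXNRD1: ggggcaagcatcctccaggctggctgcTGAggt
TXNRD2: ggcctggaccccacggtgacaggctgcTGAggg
TXN: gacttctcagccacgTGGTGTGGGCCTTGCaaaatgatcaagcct
TXN2: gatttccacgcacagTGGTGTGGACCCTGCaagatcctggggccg
Over the whole coding sequence TXN and TXN2 were identical at 54.9% of 315 aligned bases, TXNRD1 and TXNRD2 at 57.9% of 1488, PRDX1 and PRDX3 at 63.9% of 592, and PRDX1 and PRDX2 at 72.6% of 594. The longest identical run in any of these pairs was 14 bases.

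At an adjusted p under 0.05, 7 of the 10 genes fell and 1 rose in the hyperoside group, and 2 were not called (quasi-likelihood test of edgeR, adjusted over 15095 genes by Benjamini and Hochberg's method). The changes were widespread in these libraries, with 45.3% of all tested genes called in either direction, 23.2% called lower and 22.1% called higher. TXNRD1, TXN, PRDX1, PRDX5, PRDX2, PRDX6 and PRDX3 fell, SRXN1 rose, and the mitochondrial TXN2 and TXNRD2 were not called. Over the 10 genes the log2 fold changes had a median of -0.25, against 0.00 over all tested genes. All changes were modest. No member passed a fold change above 2, which 10.2% of tested genes did together with the adjusted p. In 7 of the 10 genes all hyperoside libraries lay below all control libraries, against 27.3% of tested genes, and in none did they all lie above, against 27.1%, with 54.4% of tested genes separating the groups one way or the other.

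**Figure D1:**
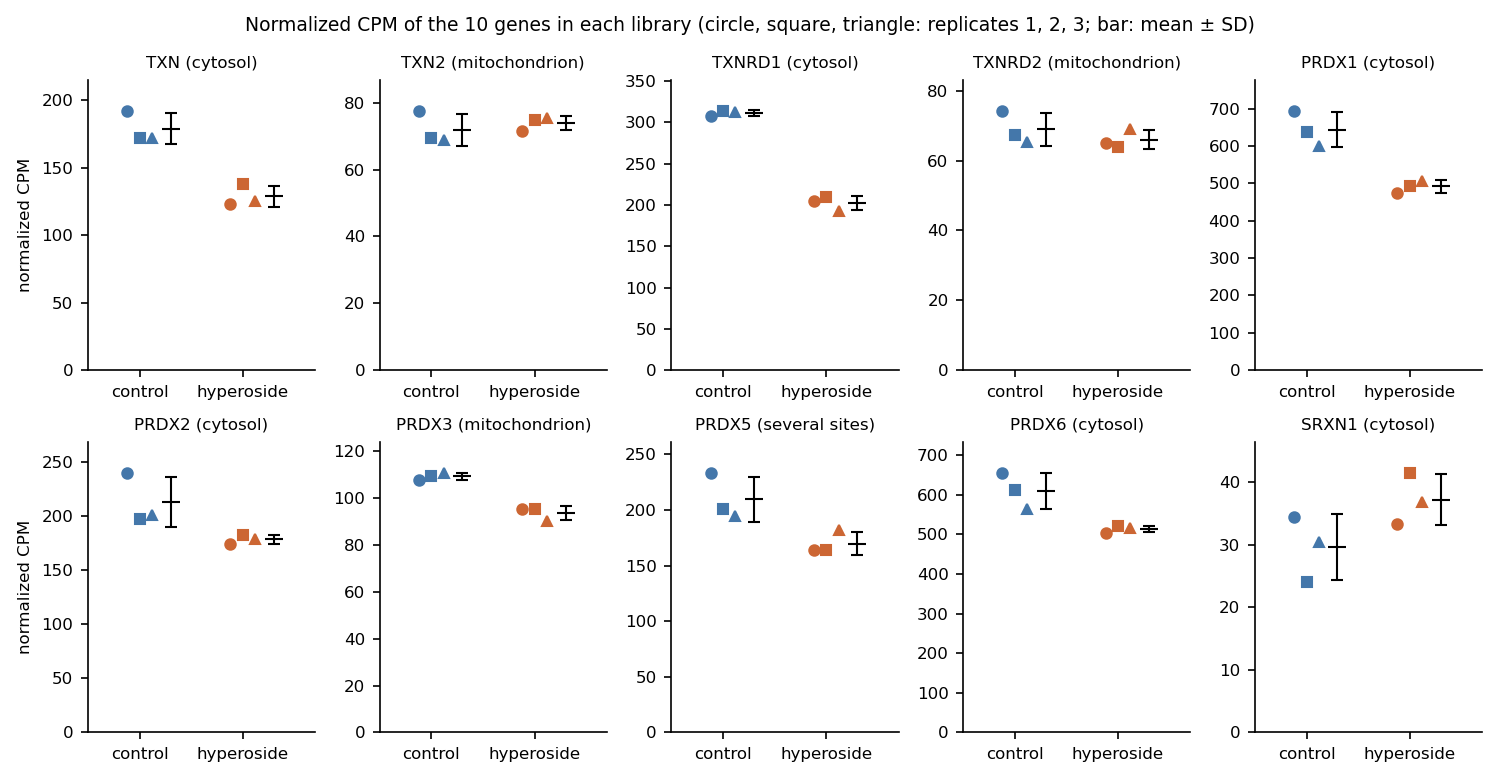
Normalized CPM (vertical axes, each starting at 0) of the 10 genes in the 3 control and 3 hyperoside libraries, with markers for replicates 1, 2 and 3 and a bar for the mean ± SD (n = 3). The groups do not overlap for TXN, TXNRD1 and the 5 peroxiredoxins, and they overlap for TXN2, TXNRD2 and SRXN1.

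Among the thioredoxin reductases, which pass electrons from NADPH to thioredoxin, TXNRD1 had 307.5, 313.6 and 312.3 normalized CPM in control replicates 1, 2 and 3 and 204.7, 209.5 and 193.1 in hyperoside replicates 1, 2 and 3. The control values lay close together and every hyperoside library was far below them. TXNRD1 fell to 65.1% of the control mean, with a log2 fold change of -0.62 ± 0.07 (SE, with an edgeR adjusted p of 8.92e-07), the largest decrease of the 10 genes. TXNRD2, the mitochondrial reductase, had 74.2, 67.2 and 65.4 normalized CPM in the control libraries and 65.0, 64.0 and 69.1 in the hyperoside libraries. Its groups overlapped. The log2 fold change of TXNRD2 was -0.06 with a 95% interval from -0.23 to 0.11 (adjusted p = 0.559 from edgeR), so a decrease of the size seen in TXNRD1 lay outside this interval.

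Of the thioredoxins too, the cytosolic form was called and the mitochondrial form was not. TXN, the cytosolic thioredoxin, had 192.0, 172.4 and 172.3 normalized CPM across the control replicates, against 123.3, 137.9 and 125.5 across the hyperoside replicates. Each hyperoside library was below each control library. TXN fell to 72.0% of the control mean, a log2 fold change of -0.47 ± 0.08 (SE, with an edgeR adjusted p of 6.35e-05). TXN2, the mitochondrial thioredoxin, had 77.5, 69.6 and 68.9 normalized CPM across the control replicates, against 71.7, 74.9 and 75.4 across the hyperoside replicates. The hyperoside values of TXN2 lay inside the control range. Its log2 fold change was 0.04 with a 95% interval from -0.13 to 0.21 (adjusted p = 0.712 from edgeR).

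PRDX1 and PRDX2 are peroxiredoxins of the cytosol and nucleus that thioredoxin reduces. PRDX1 had 693.3, 637.9 and 599.6 normalized CPM across the control replicates, against 474.4, 493.7 and 506.6 across the hyperoside replicates. All hyperoside values were below the lowest control value. PRDX1 fell to 76.4% of the control mean, a log2 fold change of -0.39 ± 0.07 (SE, with an edgeR adjusted p of 0.000206). Its exons, on chromosome 1 between 45511036 and 45523047, overlap MMACHC on the opposite strand. The use of strand in counting is not given in the sources used here, so reads of such overlaps could not be assigned. PRDX2, abundant in red cells, had 239.3, 197.2 and 201.1 normalized CPM across the control replicates, against 174.2, 182.8 and 178.4 across the hyperoside replicates. The exons of PRDX2, on chromosome 19 between 12796820 and 12801859, overlap AC018761.2 on the opposite strand. The control values were spread out by replicate 1, while the hyperoside libraries were close together. PRDX2 fell to 84.0% of the control mean, a log2 fold change of -0.25 ± 0.08 (SE, with an edgeR adjusted p of 0.0146). The decrease of PRDX2 was -0.16 without control replicate 1, where it was still called (adjusted p = 0.0396 from edgeR), and PRDX2 was not called without hyperoside replicate 1 (adjusted p = 0.0721) or without hyperoside replicate 3 (adjusted p = 0.0545).

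PRDX6, which works with glutathione and not with thioredoxin and also reduces oxidized phospholipids, had 654.0, 611.9 and 563.9 normalized CPM across the control replicates, against 504.2, 521.1 and 515.7 across the hyperoside replicates. The groups did not overlap. The log2 fold change of PRDX6 was -0.25 ± 0.07 (SE, with an edgeR adjusted p of 0.00729). PRDX5 is found in mitochondria, peroxisomes and the cytosol, and had 232.9, 201.3 and 194.4 normalized CPM across the control replicates, against 163.8, 163.6 and 181.8 across the hyperoside replicates. Again no hyperoside library reached the control range. PRDX5 had a log2 fold change of -0.30 ± 0.08 (SE, with an edgeR adjusted p of 0.00487).

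PRDX3 is the peroxiredoxin confined to mitochondria, where TXN2 reduces it. It had 107.8, 109.6 and 110.6 normalized CPM across the control replicates, against 95.3, 95.6 and 90.4 across the hyperoside replicates. Every hyperoside library of PRDX3 was below every control library, and both groups were tight. The log2 fold change was -0.22 ± 0.07 (SE, with an edgeR adjusted p of 0.0170). This call was narrow, since the adjusted p was 0.0544 without control replicate 2, 0.0539 without hyperoside replicate 1 and 0.0981 without hyperoside replicate 3, at log2 fold changes of -0.18 to -0.23.

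SRXN1, the repair enzyme of over-oxidized peroxiredoxins, was the only one of the 10 genes that rose. It had 34.4, 24.0 and 30.4 normalized CPM across the control replicates, against 33.3, 41.4 and 36.9 across the hyperoside replicates. The lowest hyperoside library lay below the highest control library, so the groups overlapped, and the spread within groups was the widest of the 10 genes relative to the mean. The log2 fold change of SRXN1 was 0.33 ± 0.12 (SE, with an edgeR adjusted p of 0.0329). The call was lost without control replicate 2, where it was 0.20 (adjusted p = 0.205 from edgeR), without hyperoside replicate 2, where it was 0.24 (adjusted p = 0.167), or without hyperoside replicate 3, where it was 0.35 (adjusted p = 0.0710). The exons of SRXN1, on chromosome 20 between 646615 and 653370, overlap AL121758.1 on the same strand in GENCODE 29, so its counts may include or lack reads of that gene. On the same annotation TXN lies on chromosome 9 (110243811 to 110256640), TXN2 on chromosome 22 (36467036 to 36482030), TXNRD1 on chromosome 12 (104215779 to 104350305), TXNRD2 on chromosome 22 (19875517 to 19941992), PRDX3 on chromosome 10 (119167703 to 119178833), PRDX5 on chromosome 11 (64318088 to 64321811) and PRDX6 on chromosome 1 (173477266 to 173488807).

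**Figure D2:**
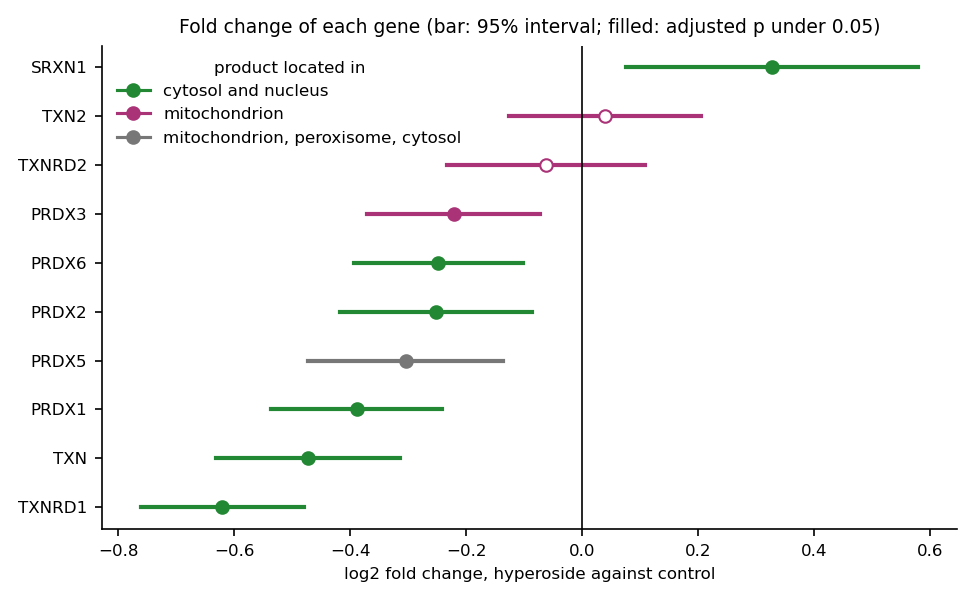
Log2 fold change of each gene (horizontal axis, hyperoside against control) with its 95% interval, coloured by where the product works and filled where the edgeR adjusted p was under 0.05. The points run from -0.62 for TXNRD1 to 0.33 for SRXN1, and the intervals of TXN2 and TXNRD2 include 0.

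Whether the mitochondrial forms changed relative to their cytosolic partners was compared within each library as the ratio of their FPKM values. TXN2 was present at 18.9%, 18.9% and 18.7% of TXN in control replicates 1, 2 and 3 and at 27.2%, 25.4% and 28.1% in hyperoside replicates 1, 2 and 3. The control ratios were almost identical to each other, and every hyperoside ratio was higher. By the means of the log2 ratios TXN2/TXN was 1.43-fold higher with hyperoside, a log2 difference of 0.51. The two-sided exact permutation p was 0.1, as low as the 20 ways of splitting 3 libraries against 3 can give. TXNRD2 was at 20.8%, 18.4% and 18.0% of TXNRD1 in the control replicates, and at 27.3%, 26.3% and 30.8% with hyperoside. Here too the groups did not overlap, and the log2 difference of 0.56 had p = 0.1 in the same exact permutation test. PRDX3 was at 12.8%, 14.1% and 15.2% of PRDX1 in the control replicates, and at 16.5%, 15.9% and 14.7% with hyperoside. These ranges overlapped, and the log2 difference of 0.16 had an exact permutation p = 0.2. It was 0.10 without control replicate 1. After Benjamini-Hochberg adjustment over the 3 ratios, the exact permutation p-values were 0.15, 0.15 and 0.2, so none passed 0.05, which this test cannot reach with 3 libraries against 3.

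**Figure D3:**
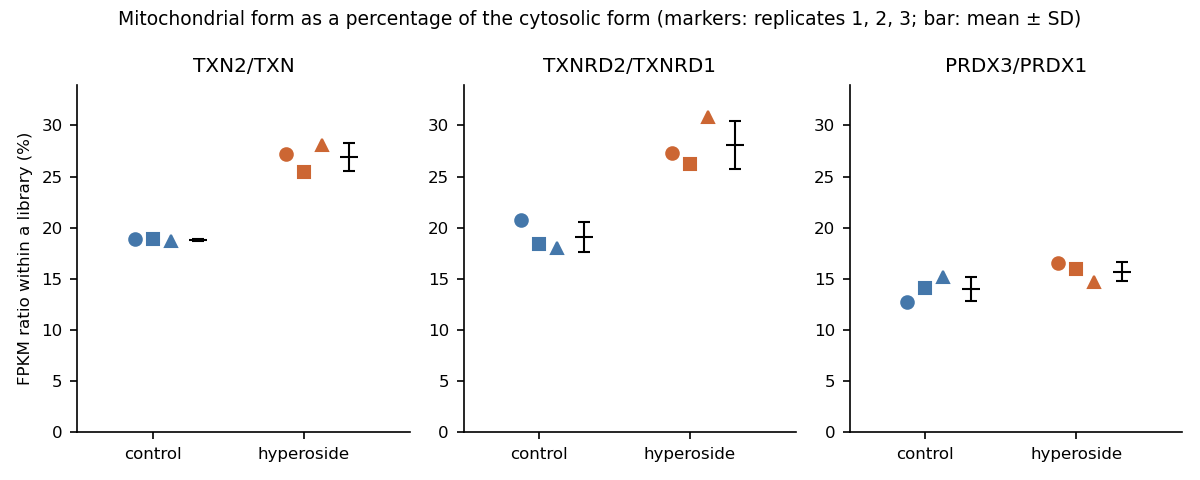
FPKM of the mitochondrial form as a percentage of the cytosolic form in the same library (vertical axes from 0), for TXN2/TXN, TXNRD2/TXNRD1 and PRDX3/PRDX1, with markers for replicates 1, 2 and 3 and a bar for the mean ± SD (n = 3). The first 2 ratios separate the groups, at 18.0% to 20.8% in control and 25.4% to 30.8% in hyperoside libraries, while the ranges of PRDX3/PRDX1 overlap.

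By level, PRDX1 was the most abundant of the 10 genes in both groups, with 494.3 ± 24.2 FPKM without and 391.0 ± 9.85 FPKM with hyperoside (SD, n = 3 each). PRDX6 followed with 354.2 ± 18.0 and 309.0 ± 4.08 FPKM. In the control group PRDX5 (239.0 ± 17.5 FPKM), TXN (238.4 ± 9.63 FPKM) and PRDX2 (225.4 ± 19.4 FPKM) came next, and the library ranges of neighbours in this order overlapped, so they were not told apart. TXNRD1 (71.8 ± 2.39 FPKM) and PRDX3 (69.2 ± 2.56 FPKM) overlapped as well. Below them stood TXN2 with 44.8 ± 1.92, TXNRD2 with 13.7 ± 0.59 and SRXN1 with 11.5 ± 1.89 FPKM, and the library ranges of these neighbours did not overlap in the control group. The order changed in the hyperoside group. TXN, at 177.8 ± 10.8 FPKM, stood below PRDX2 with no overlap, TXNRD1, at 48.3 ± 2.29 FPKM, stood below PRDX3 and overlapped TXN2 at 47.7 ± 0.98 FPKM, and SRXN1, at 14.9 ± 1.59 FPKM, overlapped TXNRD2 at 13.6 ± 0.47 FPKM. The 6 peroxiredoxins, PRDX4 of the endoplasmic reticulum included, summed to 1394 to 1551 FPKM in the control libraries and 1204 to 1238 FPKM in the hyperoside libraries. PRDX1 held 33.8% ± 0.42 of this sum without and 32.0% ± 0.36 with hyperoside (SD, n = 3 each), with no overlap, while the ranges of the shares of the other 5 overlapped between groups.

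The promoter windows of RefSeq (GRCh38.p14, 250 bases before to 50 after the start site) gave 11 windows for 7 of the 10 genes. They were searched on both strands for the core of the antioxidant response element, TGACNNNGC, the sequence through which NRF2 acts. A match was found in 2 of the 11 windows, both of TXNRD1, against 13.3% of all 35116 windows, so the count lay near the background. No window was searched for TXN2, PRDX1 and PRDX6. The stretches before the upstream start site of TXNRD1, the gene with the largest decrease, and before the start site of SRXN1, the gene that rose, are shown outside annotated exons, with the TXNRD1 match farther from the start site in capitals. That window holds 2 matches, and the nearer one lies past the end of the stretch. They lie at chr12:104215624-104215743 on the plus strand and chr20:653371-653450 on the minus strand.
TXNRD1: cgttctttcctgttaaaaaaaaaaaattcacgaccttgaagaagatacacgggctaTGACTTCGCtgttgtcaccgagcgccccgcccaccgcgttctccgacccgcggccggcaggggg
SRXN1: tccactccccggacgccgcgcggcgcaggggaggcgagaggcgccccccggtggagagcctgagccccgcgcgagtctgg
A match describes these letters only and shows no binding.

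Of 10 tested relatives of the thioredoxin fold that are not among the 10 genes, 7 fell, 2 rose and GLRX3 was not called, with a median log2 fold change of -0.34. The shares over all tested genes were 23.2% lower and 22.1% higher. Without hyperoside replicate 1 only 4 of the relatives fell, and 1 rose without control replicate 3, hyperoside replicate 1 or hyperoside replicate 2. PRDX4 averaged 76.6 ± 10.8 normalized CPM without hyperoside and 60.7 ± 1.30 with it (SD, n = 3 each), for a log2 fold change of -0.34 (adjusted p = 0.00678 from edgeR). TXNRD3, the reductase best known from testis, was at the low level of 4.80 ± 1.19 and 2.65 ± 0.68 normalized CPM (SD, n = 3 each) with a log2 fold change of -0.86 (adjusted p = 0.00902 from edgeR). The mitochondrial glutaredoxins GLRX5, needed for iron-sulfur clusters, and GLRX2 had log2 fold changes of -0.70 (adjusted p = 1.71e-06 from edgeR) and -0.46 (adjusted p = 0.00238 from edgeR). TXNIP, which binds and inhibits thioredoxin, stood out in the other direction. It rose to 397% of the control mean in normalized CPM, a log2 fold change of 1.99 (adjusted p = 1.98e-12 from edgeR). Per FPKM of TXN there were 0.166, 0.212 and 0.193 FPKM of TXNIP in control replicates 1, 2 and 3 and 1.13, 0.946 and 1.07 in hyperoside replicates 1, 2 and 3, so that the transcript of the inhibitor went from well below to about the level of its target. The other relative that rose, TXNL1, named after its values were seen, had a log2 fold change of 0.24 (adjusted p = 0.0195 from edgeR).

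Enzymes that thioredoxin reduces were mostly not called, where 45.3% of all tested genes were called in either direction. Of 7 listed genes MSRB3 had no count, and of the 6 tested only MSRA, a methionine sulfoxide reductase, rose, from 3.66 ± 0.95 to 6.67 ± 0.58 normalized CPM (n = 3 each, ± SD), which gave a log2 fold change of 0.86 (adjusted p = 0.00187 from edgeR). RRM1 and RRM2, the subunits of ribonucleotide reductase, had log2 fold changes of 0.00 and 0.15 (adjusted p = 0.987 and 0.171 from edgeR) and are named here after their values were seen.

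NADPH feeds the relay, and among its 10 suppliers reported here and tested 4 fell, 1 rose and 5 were not called. ME3 had at most 5 counts in a library and was not tested. The median log2 fold change of the listed genes was -0.10, and 2 of them rose without control replicate 1 or without hyperoside replicate 2. The cytosolic isocitrate dehydrogenase IDH1 had 184.9, 184.6 and 215.4 normalized CPM across the control replicates, against 105.7, 101.7 and 104.9 across the hyperoside replicates. Its hyperoside values were far below control, with a log2 fold change of -0.91 ± 0.08 (SE, with an edgeR adjusted p of 5.38e-08). Malic enzyme ME1 (-0.59) and the mitochondrial IDH2 (-0.39) also fell on the log2 scale (adjusted p = 0.000278 and 0.000345 from edgeR), as did TALDO1 of the pentose phosphate pathway (-0.31, adjusted p = 0.00412 from edgeR), named after its values were seen. NNT, the mitochondrial transhydrogenase that makes NADPH in the matrix, rose by a log2 fold change of 0.41 (adjusted p = 0.000563 from edgeR).

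Reading TGA as selenocysteine takes its own machinery. Of its 6 listed genes, all tested, 3 fell and 1 rose, with a median log2 fold change of 0.02. The shares over all tested genes were 23.2% lower and 22.1% higher. Without hyperoside replicate 1 or without hyperoside replicate 3, only 2 of the listed genes fell. SECISBP2, the factor that binds selenoprotein messages, fell from 58.0 ± 3.64 to 37.1 ± 1.99 normalized CPM (n = 3 each, ± SD), which gave a log2 fold change of -0.64 (adjusted p = 1.1e-05 from edgeR). SEPSECS, which makes selenocysteine on its tRNA, fell by 0.68 and SEPHS2, which makes the selenium donor, fell by 0.24 on the log2 scale (adjusted p = 0.00014 and 0.0120 from edgeR). SECISBP2L, a relative of SECISBP2, rose by a log2 fold change of 0.52 (adjusted p = 0.00064 from edgeR).

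Other enzymes handle superoxide and peroxide outside the relay. Of 6 listed genes GPX1 had 0 to 10 counts per library and was not tested, and of the other 5, 4 fell and none rose, with a median log2 fold change of -0.26, where 23.2% of all tested genes were called lower. Catalase (CAT) had a log2 fold change of -0.34, SOD1 of -0.29, SOD2 of -0.26 and the glutathione reductase GSR of -0.24 (adjusted p = 0.00142, 0.00343, 0.00691 and 0.0095 from edgeR). GPX4 was not called, with a log2 fold change of -0.17 (adjusted p = 0.0913 from edgeR). Its 95% interval, which is not adjusted for the number of genes, ran from -0.341 to -0.002. Leaving out 1 library at a time gave 3 to 5 genes of the list called lower. The 5 were reached without hyperoside replicate 3, where GPX4 was among them.

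NRF2 is encoded by NFE2L2 and held in check by KEAP1. NFE2L2 fell (-0.52, adjusted p = 2.46e-05 from edgeR) while KEAP1 rose from 40.4 ± 1.47 to 66.4 ± 4.64 normalized CPM (n = 3 each, ± SD), which gave a log2 fold change of 0.72 (adjusted p = 2.54e-06 from edgeR). Of the 10 tested genes of the list that holds both, 6 fell, 3 rose and 1 was not called, and HMOX1 had at most 1 count in a library. By the same test and threshold, 23.2% of the 15095 genes fell and 22.1% rose. SLC7A11, the cystine transporter chain, had the largest decrease of the list at -1.90 (adjusted p = 1.19e-08 from edgeR), and GCLM, the regulatory subunit of glutathione synthesis, had a log2 fold change of -0.59 (adjusted p = 0.000219 from edgeR). Without NFE2L2 and KEAP1, 5 of the 8 tested targets fell, 2 rose and FTH1, at -0.13 on the log2 scale, was not called (adjusted p = 0.123 from edgeR). Named after their values were seen, OSGIN1 (-0.60), GCLC (-0.37) and FTL (-0.36) were the others that fell (adjusted p = 0.00776, 0.00397 and 0.000267 from edgeR), and NQO1 (0.35) and ABCC1 (0.25) were those that rose (adjusted p = 0.00277 and 0.0110 from edgeR).

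**Figure D4:**
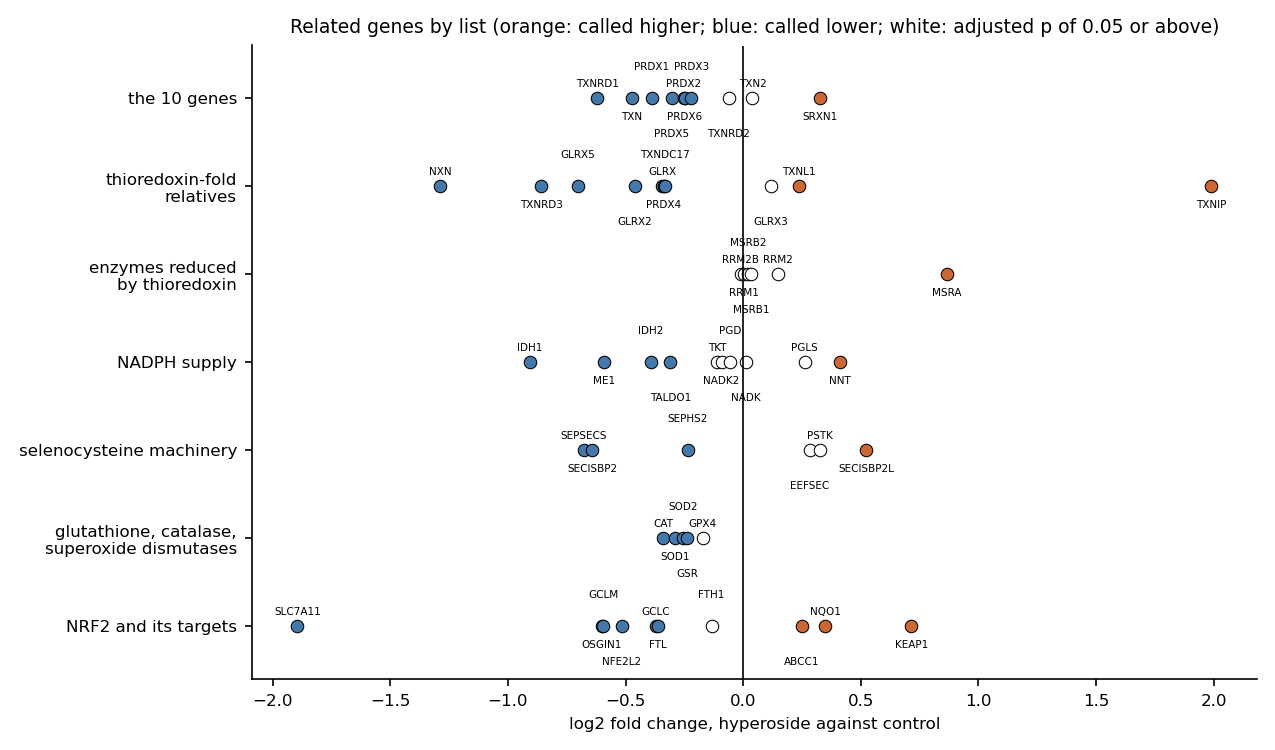
Log2 fold change (horizontal axis, hyperoside against control) of the 10 genes and of each tested gene of the 6 related lists, in rows by list, orange where called higher, blue where called lower and white where not called. TXNIP at 1.99 and SLC7A11 at -1.90 lie farthest out, and the 10 genes sit between -0.62 and 0.33.

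The patterns over the 6 libraries were also compared with those of 15085 other tested genes by Pearson's r of log2 CPM. The genes most like TXNRD1 were SLC30A5, ETV5 and DONSON, each with r = 0.999, and 2119 genes had r above 0.9. Those most like SRXN1 were TWNK (r = 0.993), BCAN-AS1 (r = 0.980) and JMJD4 (r = 0.979), and 182 genes had r above 0.9. These values are a description over 6 libraries that fall into 2 groups. Genes that separate the groups in the same direction therefore resemble each other. This does not cover SRXN1, whose groups overlapped.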

How the data were processed

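Total RNA of K562 cells was sequenced in 6 libraries. The submitters' processing notes name fastp, HISAT2, HTSeq and hg38, without versions. The dose was taken from the study's text. The gene annotation and the use of strand are not given in the sources used here. The authors deposited raw counts per gene, not normalized, and FPKM values scaled to gene length and library total. A single length explained the FPKM values of all 6 libraries, within 0.1 percent, in 23241 of 23241 genes with counts.

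For the counts, edgeR 4.0.16 (R 4.3.3) was used with filterByExpr (minimum count 10, minimum total 15), TMM factors and a quasi-likelihood test on condition alone. Benjamini-Hochberg adjustment ran over all 15095 genes tested. The standard error is the log2 fold change divided by the square root of F, and 95% intervals use the t distribution with the degrees of freedom of the test. The paper names DESeq, and DESeq2 1.42.0 and limma 3.58.1 served as alternatives. Ratios of FPKM were compared by two-sided exact permutation tests. Library totals of 35613283 to 36754725 counts leave spread between libraries as the main error for the 10 genes, and intervals cover this spread only. The edgeR steps were run on simulated counts as a check of the code. Those counts held far fewer changed genes than were called here and used the same dispersion for every gene. They do not give error rates for these data. Alternatives covered normalization, test, filter, FPKM with added 1 or 0.1, fold threshold, omission of each library and a replicate block.

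Members and lists were chosen with earlier results of these data known. Named genes were the 10 members, up to 4 called genes of each related list by smallest p, and NFE2L2, KEAP1, TXNIP, PRDX4, TXNRD3, GSR and GPX4. For the members with the largest decrease and increase, the 3 genes of most similar pattern were also named. Genes outside this rule are marked, apart from cell type markers, genes overlapping a member and untested genes. GLRX3 and FTH1 were also named after their values were seen. Marker lists for K562 and other cell types were summed from raw counts. Positions, coding sequences and exon overlaps came from GENCODE 29 on GRCh38, taking for each gene the APPRIS principal transcript with the longest coding sequence, and promoters from RefSeq (GRCh38.p14), matched by symbol. Plots were drawn with matplotlib 3.10.9. Annotation columns of the tables were not used here. Some listed or overlapping genes are not reported here.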

Additional observations from a re-analysis of the deposited data

How the results depend on the processing

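Each of the 10 genes kept its direction in all 15 alternatives. TXN, TXNRD1, PRDX1, PRDX5 and PRDX6 were called in every one, and TXN2 and TXNRD2 in none. With a fold change above 2 required as well, 0 genes were called higher and 0 lower. Leaving out 1 library at a time gave 0 to 1 members called higher and 5 to 7 called lower. The log2 fold change then ranged from -0.30 to -0.16 for PRDX2, from -0.24 to -0.18 for PRDX3 and from 0.20 to 0.45 for SRXN1, the 3 genes that lost their call in some of these fits. With fewer libraries the test has less power. The labels do not say whether the replicate numbers pair the samples. Deviations from the group means of same-numbered libraries correlated at -0.081, -0.0327 and -0.0342, so no shared effect of the number was visible. With 3 libraries per group this check cannot tell whether the samples were paired. With the replicate number as a block 6 members were called lower and 1 higher, and PRDX3 was at -0.22 with an adjusted p of 0.0536, while no other member changed its call. The ratios TXN2/TXN, TXNRD2/TXNRD1 and PRDX3/PRDX1 kept their direction in all alternatives. Scaling moved the median of all genes by less than 0.1. Normalized to upper quartiles or taken from FPKM, 2 genes of the selenocysteine list were called higher in place of 1. Taken from FPKM, 3 relatives of the thioredoxin fold were called higher in place of 2, and 5 or 6 lower in place of 7. With the replicate block 1 of these relatives was called higher and 6 lower. Upper-quartile factors or a minimum count of 50 gave 6 lower. Of the superoxide and peroxide enzymes outside the relay, 3 were called lower from FPKM in place of 4.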
